A study of Mus musculus with 31 samples.

Results

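Skin of wild type C57BL/6J mice was compared between 6 and 10 weeks of age, the interval in which the second hair growth phase of a young mouse ends and its follicles come to rest. The comparison used 7 of the 31 arrays of the series, chosen by their titles, with 4 arrays at 6 weeks and 3 at 10 weeks. Each array measured the RNA of whole skin from 1 female mouse, which the labels count as separate animals. The labels name no engineered allele in the wild type mice. The series also holds wild type skin of 2, 4 and 8 weeks, and skin of cpdm mice, which lack the ubiquitin ligase subunit SHARPIN and develop a chronic dermatitis. The strain of those mice is given as C57BL/KaLawRij-Sharpincpdm/Sharpincpdm RijSunJ, so mutation and substrain cannot be told apart. The cpdm arrays of 6 and 10 weeks, 3 each, were used here only to ask whether the wild type change differed from that of mutant skin. Sharpin signal was 7.98 to 8.22 in the 7 wild type arrays and 7.33 to 7.58 in those 6 cpdm arrays.

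Hair follicles pass through growth (anagen), regression (catagen) and rest (telogen). In growth, matrix cells at the base of the follicle divide and mature into a hair shaft of keratins and keratin-associated proteins. The inner root sheath around the shaft has keratins of its own and trichohyalin. At rest neither structure is made, and the stem cells of the bulge and the papilla below it remain. Growth also thickens the skin, changes its fat layer and brings pigment cells of the bulb into melanin synthesis. Whole skin further holds epidermis, glands, vessels, immune cells and the thin sheet of skeletal muscle beneath the fat.

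Signals are log2 values, and differences are given as 10 weeks minus 6 weeks with ± the standard error (SE) of a limma fit. Of 19938 genes, 696 passed an adjusted p of 0.05, which is 3.49%. At 10 weeks 392 genes (1.97%) were higher and 304 (1.52%) were lower. The falls were the larger changes. Of the 304 lower genes 122 fell at least 2-fold and 79 at least 4-fold, and 54 of those 79 belong to the lists of inner root sheath, hair keratin, keratin-associated and hair matrix genes. Only 54 of the higher genes rose at least 2-fold, with a largest rise of 1.92, against a largest fall of -5.54. In the plot of all genes the hair lists form the left arm.

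**Figure D1:**
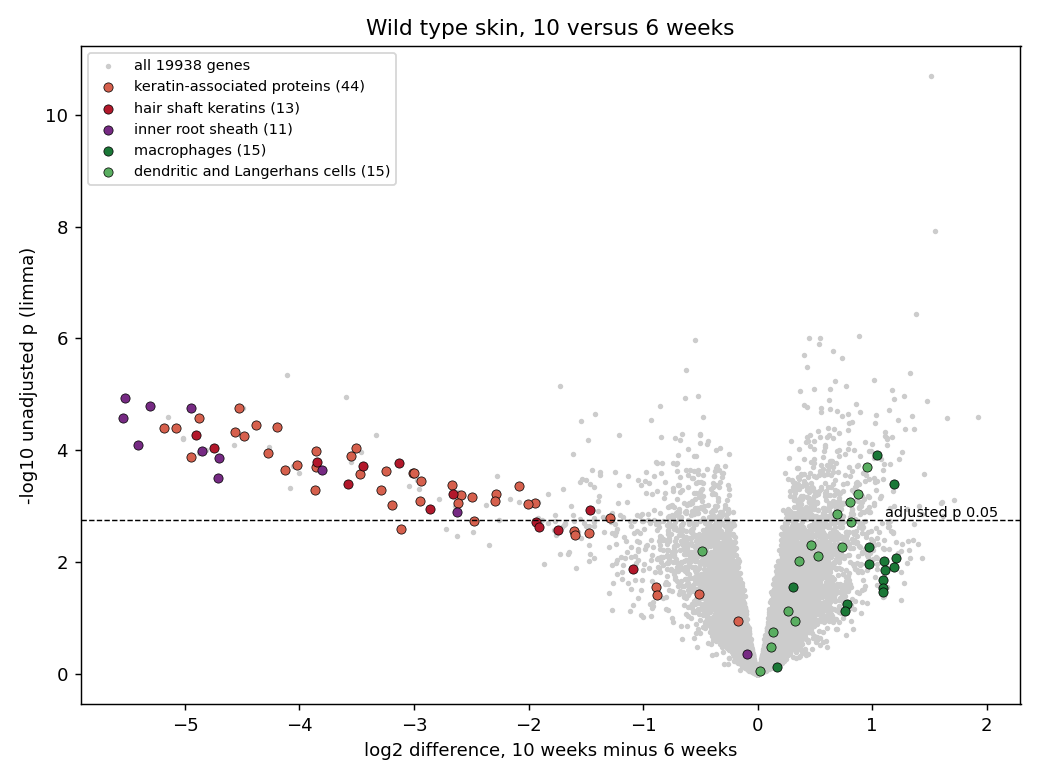
Each point is 1 gene, with the log2 difference between 10 and 6 weeks on the x axis and -log10 of the unadjusted limma p on the y axis, and coloured points are members of 5 lists. The inner root sheath, hair keratin and keratin-associated genes reach -5.54 on the left, and the macrophage and dendritic cell genes lie mostly to the right of 0 with differences below 1.22.

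The 6-week arrays differed among themselves more than the 10-week arrays. Correlations across genes ran from 0.973 to 0.992 among the 6-week arrays and from 0.992 to 0.996 among the 10-week arrays. Among the 304 lower genes the median standard deviation (SD) was 0.340 at 6 weeks and 0.131 at 10 weeks. In those genes 6-week replicate 3 was highest in 216 and 6-week replicate 2 lowest in 254. The counts rest on single arrays. Without 10-week replicate 1, 2 genes passed, Pla2g2d and Pamr1, both higher. Without 10-week replicate 3, 35 were higher and 19 lower, and without 10-week replicate 2, 425 and 208. Without 6-week replicate 1 the counts were 74 and 79, without replicate 2 1038 and 849, without replicate 3 92 and 34, and without replicate 4 307 and 144. A fit of the 7 arrays alone called 67 higher and 59 lower genes, and a fit of the 16 wild type arrays 7 and 0. No called gene changed its sign in any of these fits. In what follows every call but those of Pla2g2d and Pamr1 ended without 10-week replicate 1. For the 74 called genes described with values here, 15 calls remained without 10-week replicate 3, and 33 and 30 without 6-week replicates 1 and 3.

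**Figure D2:**
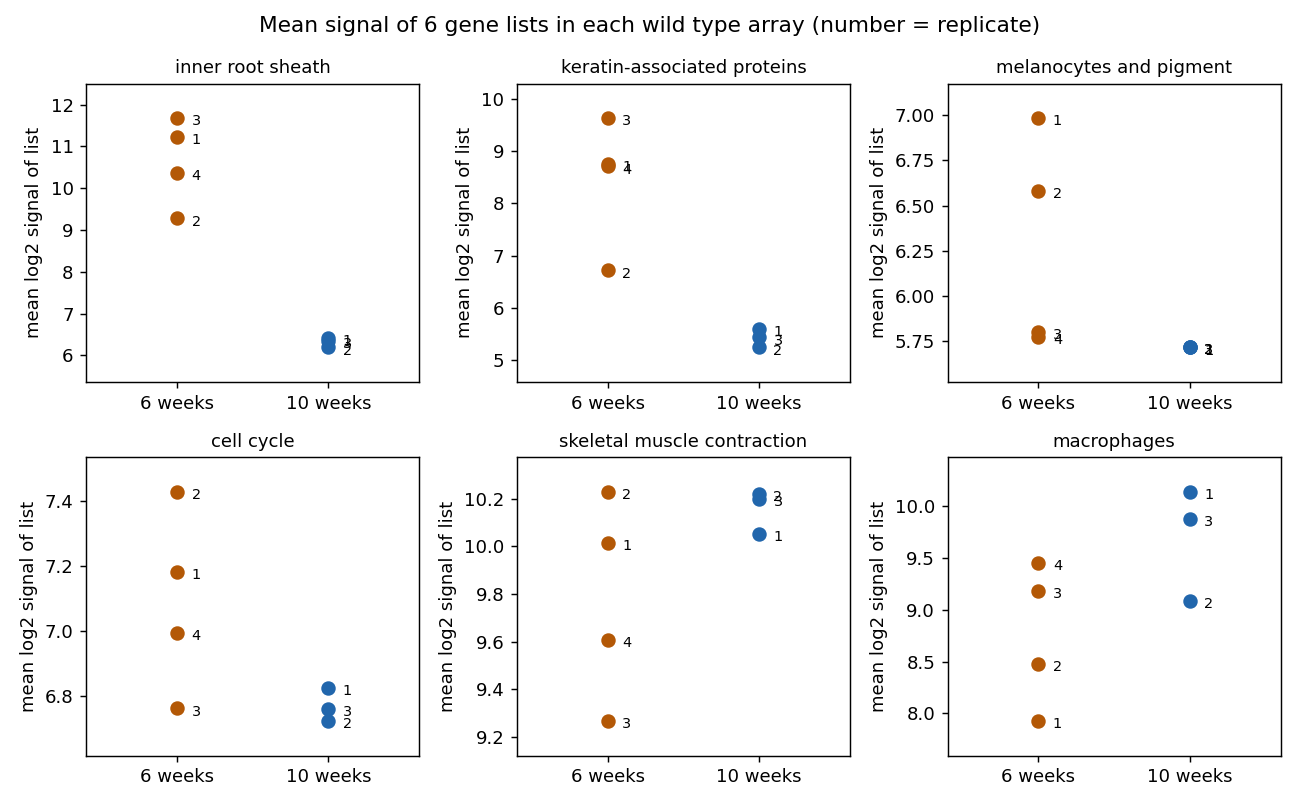
Each point is the mean log2 signal of 1 gene list in 1 wild type array, with the replicate number beside it. The inner root sheath and keratin-associated lists separate the ages, with 6-week replicate 2 lowest of its group. The pigment list is raised only in 6-week replicates 1 and 2, the muscle list is lowest in 6-week replicates 3 and 4, and the macrophage list overlaps between the ages.

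The inner root sheath had the largest falls. Of its 11 genes 10 were lower at 10 weeks, against 1.52% of all genes, and their median difference was -4.85. Krt25, an acidic keratin of the sheath, read 12.39, 10.90, 12.53 and 11.69 in 6-week replicates 1 to 4 and 6.66, 6.01 and 6.35 in 10-week replicates 1 to 3. The lowest 6-week array was more than 4 log2 units above the highest 10-week array. Krt25 fell by 5.54 ± 1.08, or 46.4-fold (adjusted p = 0.00953). Its basic partner keratin Krt71 read 12.76, 11.42, 12.92 and 12.35, then 7.20, 6.78 and 7.20, a difference of -5.30 ± 0.99 (adjusted p = 0.00878). Tchh, trichohyalin, which hardens the sheath and the medulla, read 12.75, 10.97, 13.11 and 12.51, then 7.54, 7.14 and 7.49, a difference of -4.95 ± 0.93. None of these overlapped between ages, and 6-week replicate 2 was lowest of its group in each.

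The other keratins of the sheath kept this order of arrays, except Krt28, where 6-week replicate 4 (8.57) was just below replicate 2 (8.78). Krt27 fell by 5.52 ± 1.01, Krt26 by 5.41 ± 1.15, Krt73 by 4.85 ± 1.05, Krt28 by 4.71 ± 1.12 and Krt72 by 4.70 ± 1.04. Krt74 was lower by a smaller amount, from 7.67, 5.56, 8.97 and 7.25 to 4.54, 4.77 and 4.90 (-2.63 ± 0.72). Padi3, the enzyme that converts arginine of trichohyalin to citrulline, fell by 3.80 ± 0.88. Gata3, a transcription factor of the sheath that the epidermis also makes, was the 1 member not called, at -0.09 ± 0.12. For Krt25 the SD was 0.75 at 6 weeks and 0.33 at 10 weeks, but 3.47 at 8 weeks, which enters the shared estimate of spread. Its adjusted p was 0.00282 with the 7 arrays alone and 0.0588 with the 16 wild type arrays. Without 10-week replicate 1 it was 0.0689, with a difference of -5.70. The number of sheath genes called was 0 without 10-week replicate 1, 3 without 10-week replicate 3, and 5 and 4 without 6-week replicates 1 and 3.

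The start sites of the 10 largest falls are shown here because these genes moved together. The 60 bases before the RefSeq start (GRCm38.p6) are printed 5′ to 3′ on the strand of the gene, with the letters TATAAA in capitals where they occur.
Krt25, chr11:99322952-99323011, minus strand: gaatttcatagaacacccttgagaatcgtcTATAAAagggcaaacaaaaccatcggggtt
Krt27, chr11:99351119-99351178, minus strand: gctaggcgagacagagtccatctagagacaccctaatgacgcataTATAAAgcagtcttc
Krt26, chr11:99337966-99338025, minus strand: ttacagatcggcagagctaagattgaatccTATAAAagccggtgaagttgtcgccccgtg
Krt71, chr15:101743098-101743157, minus strand: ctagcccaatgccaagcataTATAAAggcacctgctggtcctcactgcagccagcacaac
Krtap11-1, chr16:89571184-89571243, minus strand: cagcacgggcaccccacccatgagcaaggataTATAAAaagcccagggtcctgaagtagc
Prr9, chr3:92123948-92124007, minus strand: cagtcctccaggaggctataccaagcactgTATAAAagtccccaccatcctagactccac
Krtap8-1, chr16:89487953-89488012, minus strand: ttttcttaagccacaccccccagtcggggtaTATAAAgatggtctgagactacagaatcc
Crnn, chr3:93144729-93144788, plus strand: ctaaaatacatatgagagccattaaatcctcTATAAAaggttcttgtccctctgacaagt
Krtap15, chr16:88828949-88829008, plus strand: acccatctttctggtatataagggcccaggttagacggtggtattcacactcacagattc
Tchh, chr3:93442270-93442329, plus strand: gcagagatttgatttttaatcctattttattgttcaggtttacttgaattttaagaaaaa
TATAAA occurs in 8 of these 10 windows and not in those of Krtap15 and Tchh. Its first T lies 30 bases before the start in Krt25, Krt26 and Prr9, 40 in Krt71, 29 in Krtap8-1 and Crnn, 28 in Krtap11-1 and 15 in Krt27. Only the strand of the gene was searched. TATAAA was present in this window in 6 of the 10 inner root sheath genes with an entry, 5 of 9 hair keratins (55.6%) and 28 of 40 keratin-associated genes (70.0%). Over all 27025 genes of the table the share was 3.44%, and over the 15614 measured genes with an entry 3.71%. It was 17.5% of the 252 genes called lower that have an entry, and 6.83% of those 205 outside the 3 lists. Among 304 called higher with an entry it was 2.96%.
Retnla, the gene with the largest rise, has a match 30 bases before its start.
Retnla, chr16:48842549-48842608, plus strand: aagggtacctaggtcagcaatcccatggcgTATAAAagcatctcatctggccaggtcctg
Neighbouring members of these families lie in clusters on the same chromosomes, so the genes are not independent examples.

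**Figure D3:**
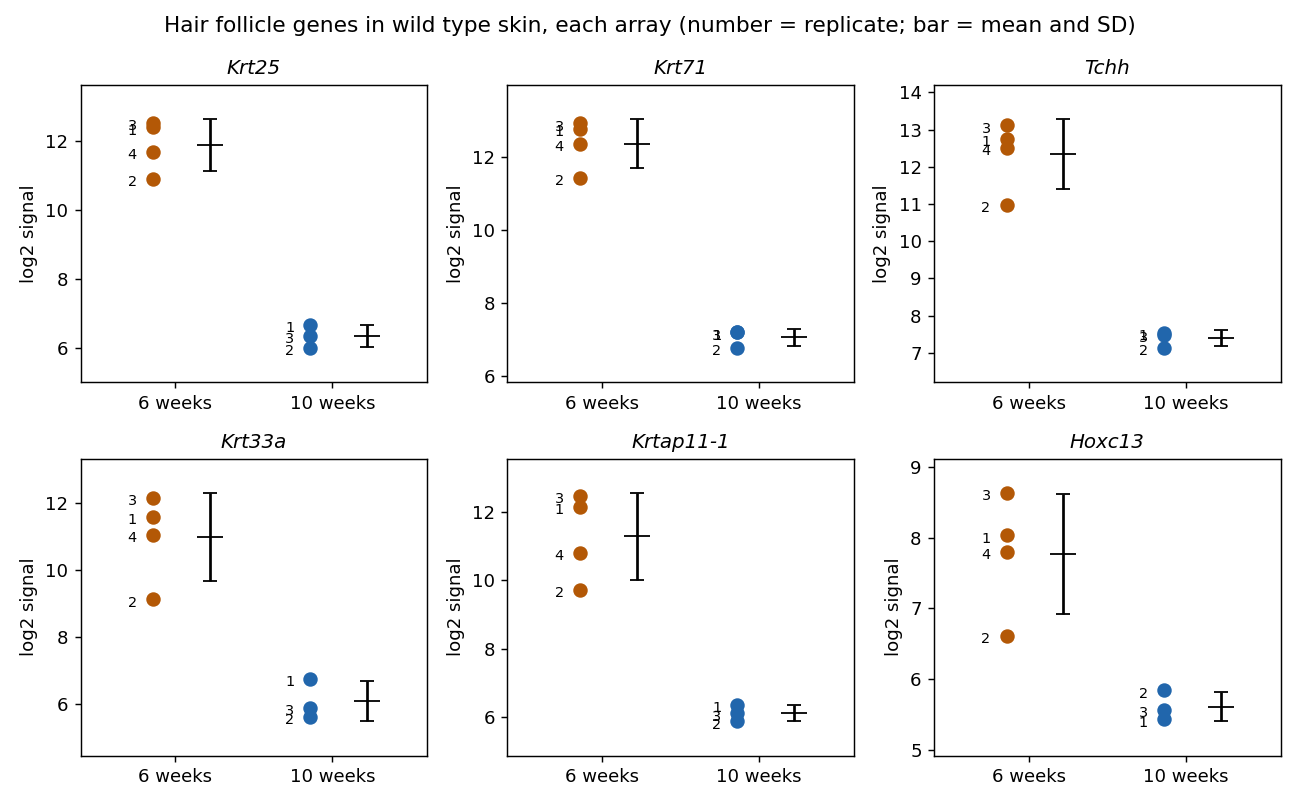
Log2 signal of 6 hair follicle genes in each wild type array, with replicate numbers, and the mean with SD beside the points. For each gene every 6-week array lies above every 10-week array, and 6-week replicate 2 is lowest of its group, for example 9.12 for Krt33a.

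The structural proteins of the shaft fell with the sheath. Of 13 measured hair keratins 9 were lower, against 1.52% of all genes, with a median of -2.86. The arrays of 11 did not overlap, where 7.74% of all genes were lower without overlap. Krt33a, an acidic keratin of the cortex, read 11.59, 9.12, 12.16 and 11.04 at 6 weeks and 6.75, 5.60 and 5.87 at 10 weeks, a difference of -4.90 ± 1.0 (adjusted p = 0.0129). Krt86, a basic keratin of the cortex, read 10.95, 7.29, 11.71 and 10.54, then 5.36, 5.43 and 5.34 (-4.75 ± 1.02). Krt31 fell by 3.84 ± 0.86, Krt35, the keratin made earliest in the matrix and cuticle, by 3.58 ± 0.88, and Krt33b by 3.13 ± 0.71. Krt84 departed from this order. It read 6.70, 5.56, 8.82 and 10.26, then 4.89, 5.58 and 5.06, so that replicate 4, not 3, was highest and replicate 2 lay within the 10-week range. Its difference of -2.66 ± 0.68 passed (adjusted p = 0.0322) although the arrays overlap. Krt82, Krt34, Krt32 and Krt40 were not called, with differences of -1.94, -1.90, -1.75 and -1.09. No hair keratin was called without 10-week replicate 1 or 3. Without 6-week replicate 1, 3 or 4 or 10-week replicate 2 the number was 2, 1, 6 and 6, and a fit of the 7 arrays alone called 3.

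Keratin-associated proteins, which bind keratin filaments together in the cortex and cuticle, were lower for 35 of 44 genes, against 1.52% of all genes. Their median was -3.06, and all 44 differences were negative. In 40 genes the arrays had no overlap, where 7.74% of all genes were lower without overlap. Krtap11-1 read 12.14, 9.72, 12.48 and 10.81 at 6 weeks and 6.35, 5.87 and 6.10 at 10 weeks, a difference of -5.18 ± 1.04 (adjusted p = 0.0119). Krtap8-1 read 12.23, 9.55, 12.67 and 11.81, then 7.16, 5.99 and 6.32 (-5.08 ± 1.02). Krtap15 fell by 4.95 ± 1.09, Krtap7-1 by 4.88 ± 0.95 and Krtap6-5 by 4.53 ± 0.85. In all 44 genes 6-week replicate 2 was lowest of its group, and replicate 3 was highest in 33. Some members within a Krtap family are near-identical, so their probe sets can share signal. The number of genes is therefore not a number of independent changes. The count was 0 without 10-week replicate 1, 1 without 10-week replicate 3, 19 without 10-week replicate 2, and 9, 7 and 20 without 6-week replicates 1, 3 and 4. A fit of the 7 arrays alone called 12.

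The plot of hair follicle genes also shows Hoxc13, a transcription factor that controls hair keratin genes. It read 8.03, 6.61, 8.63 and 7.80, then 5.43, 5.84 and 5.56, a difference of -2.16 ± 0.56 (adjusted p = 0.0359). It is 1 of 6 lower genes among 13 of the hair matrix and growing epithelium, against 1.52% of all genes. The median of that list was -1.47. Foxn1, the factor missing in nude mice, read 7.73, 6.87, 8.32 and 7.47, then 5.89, 6.43 and 6.08 (-1.46 ± 0.36). Msx2, a homeobox factor of the matrix, fell by 1.91 ± 0.54 and Bambi, a decoy receptor for BMP signals, by 1.63 ± 0.44. Dsg4, the desmosomal cadherin of the shaft, fell further, by 4.27 ± 0.91, as did the calcium-binding cuticle protein S100a3, by 3.55 ± 0.80. Shh, the hedgehog ligand made in the matrix, had separate arrays but was not called at -0.66 ± 0.20. No matrix gene was called without 10-week replicate 1 or 3 or 6-week replicate 3, 1 was without 6-week replicate 1, and 3 were without 10-week replicate 2 or 6-week replicate 4.

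A pair of genes outside the hair lists behaved in the same way. Prr9, a proline-rich protein gene of the epidermal differentiation cluster, read 10.76, 8.30, 11.49 and 10.54, then 5.24, 5.09 and 5.05 (-5.15 ± 1.0, adjusted p = 0.00952). Crnn, cornulin, a relative of trichohyalin and filaggrin, read 10.82, 8.15, 11.41 and 9.99, then 5.41, 4.82 and 4.99 (-5.02 ± 1.04, adjusted p = 0.0132). Both were among the 10 largest falls, with the array order of the sheath keratins. Neither was called without 10-week replicate 1 or 3, nor Crnn without 6-week replicate 3.

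Of 18 bulge and stem cell genes 2 were lower, against 1.52% of all genes, with a median of -0.30. Lgr5, a receptor for R-spondins that marks cycling follicle stem cells, read 7.88, 7.90, 8.84 and 9.06 at 6 weeks and 6.75, 7.15 and 7.10 at 10 weeks, a difference of -1.42 ± 0.27 (adjusted p = 0.00944). The array order was not that of the hair keratins, since replicates 1 and 2 were alike and replicates 3 and 4 higher. Cdh3, P-cadherin of the matrix and germ, read 8.53, 8.17, 8.91 and 8.50, then 7.51, 7.55 and 7.58 (-0.98 ± 0.24, adjusted p = 0.0262). Sox9, a stem cell and outer sheath factor, was at -0.85 ± 0.26 and did not pass. The bulge markers Krt15 and Cd34 were at 0.13 ± 0.18 and 0.34 ± 0.21, with overlapping arrays. None of 15 dermal papilla genes was called, their median was 0.004, and 8 of the 15 differences were positive. The most negative was Corin, a papilla protease, at -0.68 ± 0.21 with separate arrays. Lgr5 lost its call without 10-week replicate 1 (adjusted p = 0.0881), and Cdh3 also without 10-week replicate 3 or 6-week replicate 1 or 3.

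BMP signals hold follicles at rest, and WNT, hedgehog and FGF signals take part in starting or ending growth. In the BMP list 2 of 13 genes were lower, against 1.52% of all genes. The ligand Bmp7 read 8.13, 7.56, 8.61 and 8.26, then 7.06, 7.32 and 7.24 (-0.93 ± 0.18, adjusted p = 0.00984), and the receptor Bmpr1a differed by -0.51 ± 0.14 (adjusted p = 0.0412). Bmp4 missed the threshold at -0.54 ± 0.16. In the hedgehog list 1 of 9 was lower, against the same 1.52% of all genes. That was the effector Gli2, which read 7.05, 6.93, 7.14 and 7.21, then 6.29, 6.45 and 6.39 (-0.71 ± 0.16, adjusted p = 0.0226). Of 16 WNT genes none was called, with Lgr4, an R-spondin receptor, at -0.75 ± 0.22 and Wnt5a, a non-canonical ligand, at -1.04 ± 0.37. The median of that list was -0.06, and 7 of its 16 differences were positive, up to 0.53.

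In the FGF list 1 of 13 was higher, against 1.97% of all genes. Fgf18, a ligand of the resting bulge that prolongs telogen, read 7.77, 7.69, 7.38 and 7.91 at 6 weeks and 8.37, 8.78 and 8.40 at 10 weeks, a difference of 0.83 ± 0.23 (adjusted p = 0.0455). It was the 1 follicle signal called higher, and its call ended without any 1 array other than 6-week replicate 2. Bmp7 lost its call without 10-week replicate 1 or 3, as did Bmpr1a and Gli2, these also without 6-week replicate 1 or 3, and Bmpr1a without 6-week replicate 4.

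Pigment genes were not called, and the 6-week arrays fell into separate levels. Tyrp1, an enzyme of melanin synthesis, read 9.22 and 8.54 in 6-week replicates 1 and 2 but 6.12 and 6.06 in replicates 3 and 4, close to the 10-week values of 6.16, 6.23 and 6.25. Slc24a5, an ion exchanger of pigment granules, had the same split, 6.27 and 5.92 against 4.62 and 4.81. The mean of the 15 pigment genes was 6.99 and 6.58 in 6-week replicates 1 and 2, 5.80 and 5.77 in replicates 3 and 4, and 5.71 to 5.72 at 10 weeks. Mlana, a melanosome protein, was higher than the 10-week arrays in all 6-week arrays (7.73, 6.95, 6.25 and 6.46 against 5.84, 5.68 and 5.81), with -1.07 ± 0.43 (adjusted p = 0.154). The 6-week mouse with the most hair keratin signal, replicate 3, had little pigment signal, and the one with the least, replicate 2, had the next to highest.

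None of 25 cell cycle genes was called, their median was -0.27, and all 25 differences were negative. Replicate 2 at 6 weeks was highest of its group in 24 of them and replicate 3 lowest in 21, the reverse of the hair keratins. Rrm2, a subunit of the enzyme that makes deoxynucleotides, read 7.30, 7.34, 7.20 and 7.29, then 6.65, 6.51 and 6.84 (-0.62 ± 0.19, adjusted p = 0.0692). Mcm2, part of the replication helicase, read 7.53, 7.73, 6.82 and 7.47, then 6.72, 6.66 and 6.79 (-0.66 ± 0.21, adjusted p = 0.0757). Both had separate arrays, with replicate 3 of Mcm2 close to the 10-week values. The list mean was 7.18, 7.43, 6.76 and 6.99 at 6 weeks and 6.72 to 6.82 at 10 weeks.

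Genes of the epidermis showed smaller differences than those of the shaft. Of 10 basal keratinocyte genes 2 were lower, against 1.52% of all genes, the paired keratins Krt5 and Krt14, which the outer root sheath also makes. Krt5 read 12.37, 12.37, 12.57 and 12.65, then 12.09, 12.22 and 12.17 (-0.33 ± 0.07, adjusted p = 0.0155), and Krt14 read 11.89, 11.74, 12.22 and 12.39, then 11.32, 11.63 and 11.53 (-0.57 ± 0.13, adjusted p = 0.0243). Of 19 differentiation genes 3 were lower and 1 higher, against 1.52% and 1.97% of all genes. Tgm1, the crosslinking enzyme of the cornified envelope, differed by -0.75 ± 0.20, Klk7, a protease of shedding cells, by -0.54 ± 0.14 and Cdsn, corneodesmosin, by -0.46 ± 0.13. Lce1h, a late envelope protein, rose from 7.37, 7.39, 6.95 and 7.42 to 7.90, 8.29 and 8.31 (0.88 ± 0.22, adjusted p = 0.0273). Sprr1a, an envelope precursor of stressed epidermis and of follicles, fell from 12.49, 11.50, 12.89 and 12.71 to 10.81, 11.30 and 11.36 (-1.24 ± 0.29, adjusted p = 0.0230). It was the 1 gene called among 12 of keratinocyte stress, against 1.52% of all genes called lower. None of these 7 genes was called without 10-week replicate 1 or 3 or 6-week replicate 3. Omitting 6-week replicate 1 also ended the calls of Lce1h, Klk7, Tgm1, Cdsn and Sprr1a, omitting 6-week replicate 4 those of Krt14, Klk7, Tgm1, Cdsn and Sprr1a, and omitting 10-week replicate 2 those of Lce1h, Klk7, Tgm1 and Cdsn. None of 13 lipid barrier genes was called.

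Against these losses, the rises were small in size. The 10 largest among genes with separate arrays were Retnla, Lyz1, Hamp, Pla1a, Fcrls, Slc26a7, Pamr1, Pla2g2d, Ccl24 and Ptafr. The clearest was Pla2g2d, a secreted phospholipase A2 known from antigen-presenting cells. It read 6.60, 6.52, 6.94 and 6.70 at 6 weeks and 8.22, 7.86 and 8.54 at 10 weeks, a rise of 1.52 ± 0.13 or 2.86-fold (adjusted p = 4.05e-07). Pamr1, a secreted protein with a peptidase-like domain, read 7.10, 7.32, 7.15 and 6.80, then 9.01, 8.22 and 8.69 (1.55 ± 0.19, adjusted p = 0.000118). These were the genes called in every alternative, including each omission of 1 array, with adjusted p up to 0.0285 and 0.0355. In wild type skin of 2, 4 and 8 weeks Pla2g2d lay between 6.18 and 6.85 and Pamr1 between 6.5 and 7.63, so that no array of another age reached the 10-week values.

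**Figure D4:**
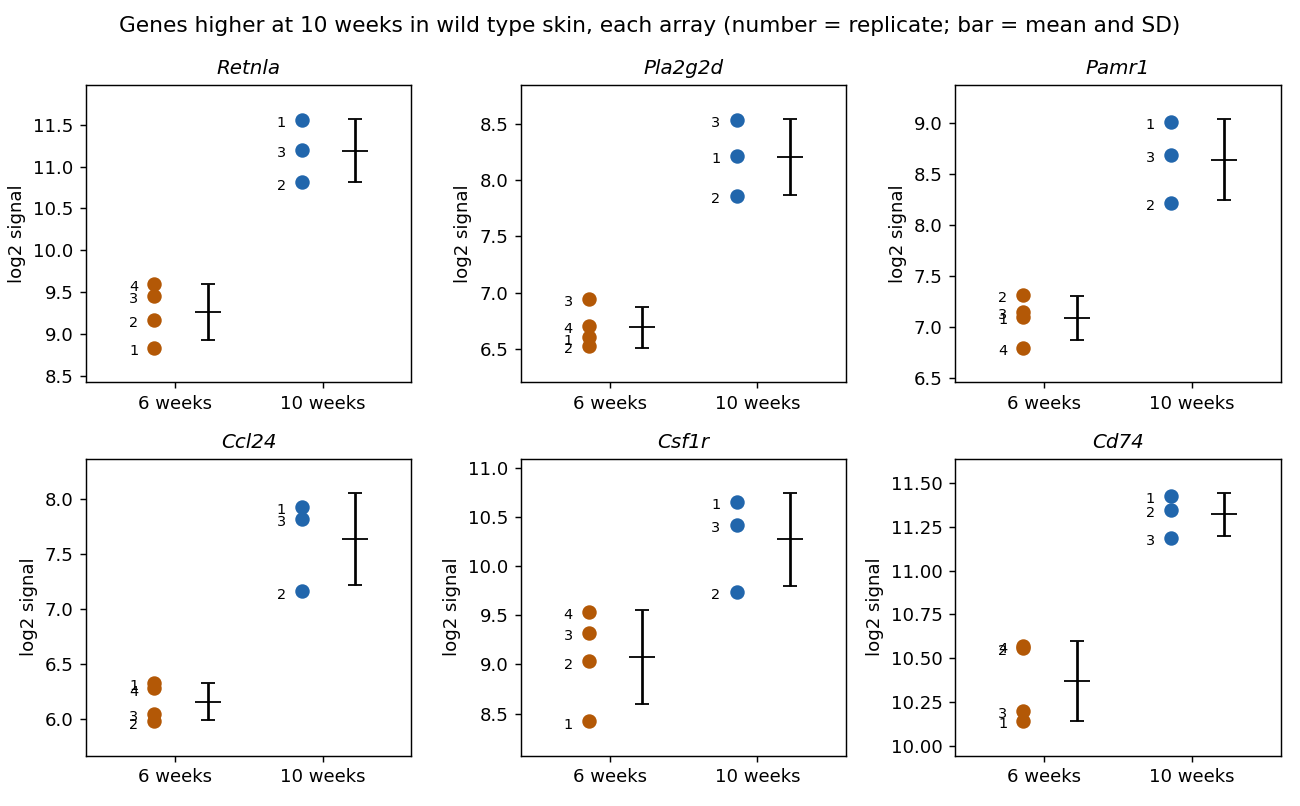
Log2 signal of 6 genes called higher at 10 weeks, in each wild type array with replicate numbers, and the mean with SD beside the points. Every 10-week array lies above every 6-week array, by the least for Csf1r, where 10-week replicate 2 reads 9.74 and 6-week replicate 4 reads 9.53.

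Retnla, a resistin-like protein secreted by macrophages in type 2 responses and by fat tissue, had the largest rise. It read 8.84, 9.17, 9.46 and 9.60, then 11.56, 10.81 and 11.20 (1.92 ± 0.37, 3.79-fold, adjusted p = 0.00952). Ccl24, the eosinophil attractant eotaxin-2, read 6.33, 5.98, 6.05 and 6.28, then 7.93, 7.16 and 7.82 (1.48 ± 0.27, adjusted p = 0.00856). Hamp, the iron hormone hepcidin, read 3.61, 4.02, 3.57 and 3.71, then 5.82, 4.80 and 5.52 (1.65 ± 0.32). In each of these 10-week replicate 1 was highest and replicate 2 lowest of its group. That order held widely, since 10-week replicate 1 was highest in 285 and replicate 2 lowest in 276 of the 392 higher genes. All 3 calls ended without 10-week replicate 1 or 3.

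Another 5 of the 10 largest rises were the following. Lyz1, a lysozyme whose probe set may share signal with Lyz2, read 9.40, 9.65, 10.53 and 11.23, then 12.29, 11.30 and 12.17 (1.72 ± 0.45, adjusted p = 0.0370). Fcrls, a scavenger receptor, differed by 1.61 ± 0.42 and Ptafr, the receptor for platelet-activating factor, by 1.46 ± 0.34. Pla1a, a phospholipase for phosphatidylserine, differed by 1.62 ± 0.45, and its call also ended without 6-week replicate 2 or when arrays were centred on their medians. In Lyz1, Fcrls and Ptafr 6-week replicate 4 was highest of its group, close below 10-week replicate 2. Slc26a7, an anion transporter, had another order, 6.36, 6.68, 4.82 and 5.41, then 7.22, 7.5 and 7.54 (1.6 ± 0.42). None of these 5 was called without 10-week replicate 1 or 3 or 6-week replicate 1, and of the 5 Ptafr alone was called without 6-week replicate 3. Slc26a7 was also not called without 10-week replicate 2 or 6-week replicate 4.

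The macrophage list was higher in median than in calls. Its 15 genes all had positive differences, with a median of 1.09 where the median over all genes was 0.03, yet 2 were called, against 1.97% of all genes. Csf1r, the receptor that macrophages need to survive, read 8.42, 9.03, 9.32 and 9.53, then 10.65, 9.74 and 10.42 (1.2 ± 0.29, adjusted p = 0.0273). Cd14, a receptor for bacterial lipopolysaccharide, read 4.94, 5.45, 5.50 and 5.61, then 7.02, 5.77 and 6.46 (1.04 ± 0.23, adjusted p = 0.0173). C1qa, a chain of complement C1q, read 8.35, 8.95, 9.95 and 10.16, then 10.99, 9.82 and 10.87, so that its arrays overlap, and was not called (1.21 ± 0.42, adjusted p = 0.0973). The mean of the list was 7.93, 8.48, 9.18 and 9.45 in 6-week replicates 1 to 4 and 10.13, 9.08 and 9.88 in 10-week replicates 1 to 3. Replicate 1 at 10 weeks was highest in all 15 genes and replicate 2 lowest in 14, and 6-week replicate 1 was lowest in all 15. No macrophage gene was called without 10-week replicate 1 or 3 or 6-week replicate 1 or in a fit of the 7 arrays alone, and 1 was without 6-week replicate 3. In whole skin more cells of a type and more RNA per cell cannot be told apart.

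Of 15 dendritic and Langerhans cell genes 4 were higher, against 1.97% of all genes, all 4 of MHC class II presentation. The median of the list was 0.46, and the arrays of 8 were higher without overlap, against 8.47% of all genes. Cd74, the invariant chain, read 10.14, 10.56, 10.20 and 10.57, then 11.43, 11.35 and 11.19 (0.96 ± 0.22, adjusted p = 0.0215). H2-Aa and H2-Eb1, chains of the class II molecules, differed by 0.88 ± 0.22 and 0.80 ± 0.21. Ciita, the factor that switches class II genes on, read 6.24, 6.5, 6.26 and 6.53, then 7.07, 7.07 and 7.10 (0.70 ± 0.19, adjusted p = 0.0455). In each of the 4 every 10-week array lay above every 6-week array. The 4 share 1 regulator, since Ciita controls the others, and macrophages and B cells also make them. None of the 4 was called without 10-week replicate 1 or 3 or 6-week replicate 1 or 3. Without 10-week replicate 2 Cd74 alone of the 4 was called, and Ciita was also not called without 6-week replicate 4. Of the list 2 were called higher without 10-week replicate 2, and 8 higher and 1 lower without 6-week replicate 2.

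Cd2, an adhesion receptor of T cells, was the 1 of 13 T cell genes called, against 1.97% of all genes called higher, from 5.94, 6.36, 6.29 and 6.52 to 7.62, 7.05 and 7.21 (1.02 ± 0.18, adjusted p = 0.00668, and 0.0712 without 10-week replicate 1). None of 11 mast cell, 10 neutrophil, 9 B and plasma cell, 22 interferon response and 7 MHC class I genes was called. The interferon list mean, like that of macrophages, was lowest in 6-week replicate 1 and in 10-week replicate 2 of each group, and ran from 6.64 to 7.91 at 6 weeks and 7.14 to 7.80 at 10 weeks.

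In the dermis 4 genes of the matrix, fibroblast and protease lists were called, where 3.49% of all genes were called in either direction. Tnc, tenascin C, a matrix glycoprotein around growing follicles and in wounds, read 7.18, 6.70, 7.74 and 7.99, then 5.38, 5.68 and 5.96 (-1.73 ± 0.31, 3.32-fold lower, adjusted p = 0.00740). The fibroblast protease Fap was higher by 0.74 ± 0.20. Dpp4, a peptidase of dermal fibroblasts, rose from 8.92, 9.0, 9.0 and 8.36 to 9.75, 9.32 and 9.77 (0.79 ± 0.16, adjusted p = 0.0120). Adamts5, a protease that cuts aggrecan and versican, rose from 8.52, 8.95, 8.92 and 8.70 to 9.86, 9.51 and 9.60 (0.88 ± 0.14, adjusted p = 0.00309). The list of 28 collagen and matrix genes had a median of -0.13, with Fap higher and Tnc lower. None of these was called without 10-week replicate 1 (adjusted p = 0.0689 for Tnc and Adamts5). Fap and Dpp4 were also not called without 10-week replicate 3, nor Fap without 6-week replicate 1 or 3.

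In the vessel lists of 18, 12, 7, 6 and 13 genes 2 genes were called, where 3.49% of all genes were called in either direction. Tek, the angiopoietin receptor TIE2 of endothelium, read 7.41, 7.76, 7.36 and 7.31, then 8.42, 8.14 and 8.41 (0.86 ± 0.16, adjusted p = 0.00878). It was the 1 of 18 blood endothelial genes called, against 1.97% of all genes called higher. Of the 18 differences 17 were positive, with a median of 0.16. Pecam1 and Cldn5, junction proteins of endothelium, had separate arrays at 0.46 ± 0.14 and 0.43 ± 0.15 without passing (adjusted p = 0.0704 and 0.0877). Of 12 angiogenic factors none was called, with Vegfd, a ligand for lymphatic and blood vessel receptors, at 0.86 ± 0.27 (adjusted p = 0.0650). None of 7 inhibitors and 6 lymphatic genes was called. Smtn, smoothelin of contractile smooth muscle, fell from 9.14, 8.70, 9.58 and 9.24 to 8.33, 8.55 and 8.51 (-0.70 ± 0.16, adjusted p = 0.0202). It was called alone among 13 pericyte and smooth muscle genes, against 1.52% of all genes called lower. Adm, adrenomedullin, a vessel-dilating peptide on the hypoxia list, rose from 6.78, 7.0, 7.77 and 7.72 to 9.10, 8.18 and 8.51 (1.28 ± 0.23, adjusted p = 0.00813). It was the 1 of 16 genes of that list called, against 1.97% of all genes called higher. Tek and Smtn lost their calls without 10-week replicate 1 or 3 (Smtn also without 6-week replicate 1 or 3), and Adm without 10-week replicate 1.

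Fat and gland genes gave 3 calls in 5 lists, where 3.49% of all genes were called in either direction. Thrsp, a regulator of fat synthesis, rose from 7.47, 7.87, 6.73 and 6.97 to 7.92, 8.68 and 7.90 (0.91 ± 0.24, adjusted p = 0.0401), the 1 of 16 adipocyte genes. Adipoq, adiponectin, read 9.27, 9.51, 8.24 and 8.39, then 9.50, 9.73 and 9.59, and was not called (0.75 ± 0.34). For both genes 6-week replicates 3 and 4 were the low arrays. Elovl3, a fatty acid elongase of sebaceous glands, fell from 8.54, 8.98, 8.46 and 8.68 to 7.14, 8.21 and 7.94 (-0.90 ± 0.21, adjusted p = 0.0238). Insig1, which restrains sterol synthesis, passed at -0.58 ± 0.16 (adjusted p = 0.0463) with overlapping arrays, as the 1 of 10 cholesterol genes. None of the 3 was called without 10-week replicate 1 or 3 or 6-week replicate 1, Thrsp and Insig1 also not without 6-week replicate 3, and Thrsp not without 6-week replicate 4 or 10-week replicate 2. No fatty acid synthesis or brown fat gene was called.

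Skeletal muscle genes were not called, and the 6-week arrays split among themselves. Of 30 contraction genes 28 had positive differences, with a median of 0.43. Their mean was 10.01 and 10.23 in 6-week replicates 1 and 2, 9.27 and 9.61 in replicates 3 and 4, and 10.05 to 10.22 at 10 weeks. Pygm, muscle glycogen phosphorylase, read 11.86, 12.03, 10.75 and 11.21, then 11.94, 12.07 and 12.03 (0.55 ± 0.23, adjusted p = 0.176). Myh1, a fast myosin heavy chain, read 10.88, 11.52, 11.17 and 11.46, then 11.91, 11.73 and 11.63 (0.50 ± 0.21). It did not follow the split, since 6-week replicate 1 was lowest. The arrays of 3 of 30 contraction genes, Myh1 among them, and 3 of 12 muscle energy genes did not overlap. Over all genes 8.47% were higher without overlap. Replicates 3 and 4, the arrays with low muscle and fat signal, are those with low pigment signal and with the higher macrophage means of the 6-week group. The part of muscle, fat and depth of sampling in the other differences was not tested. None of 15 circadian clock, 15 immediate early and heat shock, 8 Schwann cell, 17 mitochondrial, 8 mammary and 6 cartilage genes was called. Arntl, the clock factor BMAL1, was at 0.38 ± 0.13 with overlapping arrays.

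Few genes were called in both genotypes. In cpdm skin 94 genes (0.471%) were higher and 138 (0.692%) lower at 10 than at 6 weeks. Of the 392 genes higher in wild type 1 was also higher in cpdm, and of the 304 lower ones 2 were also lower, while 6 were higher in cpdm, which is 1.97% of the lower genes of wild type and 6.38% of the higher genes of cpdm. The test of the difference between the changes called 1673 genes, 8.39% of all. The wild type change was more positive for 912 (4.57%) and more negative for 761 (3.82%).

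Hair genes led this difference. In cpdm skin Krt25 had a positive difference of 4.09 ± 1.15, which did not pass (adjusted p = 0.0808), and its 3 arrays went from 6.76 to 9.10 at 6 weeks to between 11.48 and 12.27 at 10 weeks. The wild type change minus the cpdm change was -9.63 ± 1.58 (limma, adjusted p = 0.00159). Of 11 inner root sheath genes 10 had a more negative change in wild type, with a median change of 3.46 in cpdm over the list. So did 12 of 13 hair keratins, 41 of 44 keratin-associated genes and 10 of 13 matrix genes, against 3.82% of all genes. None of these genes was called within cpdm. The difference tested contains the wild type change, from the same arrays, so these counts are not separate from the wild type falls given above. The plot of both changes places them in the upper left.

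**Figure D5:**
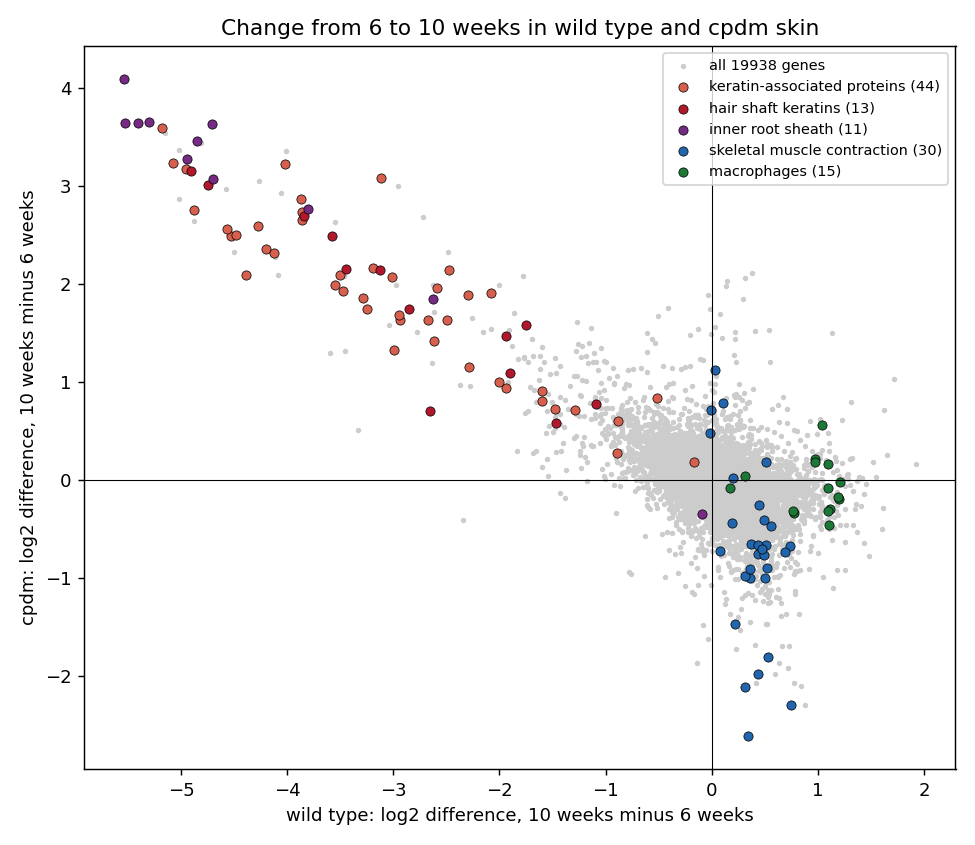
Each point is 1 gene, with the log2 difference between 10 and 6 weeks in wild type skin on the x axis and in cpdm skin on the y axis. Inner root sheath and hair shaft genes lie at negative values in wild type and positive ones in cpdm (Krt25 at -5.54 and 4.09), and the muscle genes at small positive values in wild type and mostly negative ones in cpdm.

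Muscle genes differed too. In cpdm skin 9 of 30 contraction genes and 4 of 12 muscle energy genes were lower, against 0.692% of all genes. The wild type change was more positive for 15 of the 30 and 8 of the 12, against 4.57% of all genes. Pygm differed by -1.25 in cpdm (adjusted p = 0.00984) and by 1.80 between the changes (adjusted p = 0.00382), although it was not called in wild type. Among the genes with the lowest p for the difference, several were called in cpdm and not in wild type. Sprr2f, an envelope precursor of inflamed epidermis, was at -0.13 ± 0.14 in wild type and rose by 1.54 in cpdm, and Sprr2e was at -0.03 and rose by 1.89. Their signal was low in the 7 wild type arrays, 3.65 to 4.13 for Sprr2f and 3.77 to 4.25 for Sprr2e. Both were among the dimmest 40% of genes. Probe sets of the Sprr2 genes can share signal. Col12a1, a fibril-associated collagen, was at -0.54 ± 0.18 and rose by 1.40 in cpdm. Pyy, peptide YY, was at 0.88 ± 0.30 and fell by 2.29.

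Others were called in both genotypes or in wild type. Hscb, a cochaperone for iron-sulfur clusters, rose by 0.43 ± 0.07 in wild type and fell by 0.36 in cpdm. Enah, an actin regulator, fell by 0.63 ± 0.12 and rose by 0.57 in cpdm, and Pmepa1, a brake on TGF-beta signalling, fell by 0.74 ± 0.19 and rose by 1.13. Snx29, a sorting nexin, rose by 0.45 ± 0.07 and Adgrl1, an adhesion receptor, fell by 0.55 ± 0.09 in wild type, and neither was called in cpdm. Pla2g2d differed between the changes by 1.33 (adjusted p = 0.000688), with 0.19 in cpdm. The 5 wild type calls of Hscb, Enah, Pmepa1, Snx29 and Adgrl1 ended without 10-week replicate 1, and that of Pmepa1 also without 10-week replicate 3 or 6-week replicates 1, 3 or 4. The number of genes called for the difference was 735 without 10-week replicate 1, 777 without 10-week replicate 3, 790 without 6-week replicate 3 and 2836 without 6-week replicate 2.

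The other wild type ages place the pair in the cycle, as a description. Krt25 read 12.74 to 12.79 at 2 weeks, 6.56 to 7.97 at 4 weeks and 6.49 to 12.86 at 8 weeks. The 6-week values of 10.90 to 12.53 all lay below those of 2 weeks and above those of 4 weeks. The 10-week values of 6.01 to 6.66 lay at the lower end of those of 4 weeks or below them. Tyrp1 read 10.53 to 10.59 at 2 weeks and 6.98 to 8.11 at 4 weeks, so that 6-week replicates 3 and 4, at 6.12 and 6.06, lay below both. Retnla read 5.68 to 5.80 at 2 weeks, 7.93 to 8.91 at 4 weeks and 8.93 to 10.61 at 8 weeks, below every 10-week array.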

How the data were processed

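The authors deposited log2 signals of 35556 probe sets in 31 arrays. The submitters' processing notes name Affymetrix Expression Console 1.2 and RMA. The sources used here do not say whether all arrays were normalized together, and give no scan dates or detection calls, so no batch was tested. The labels' protocols name a 3' labelling kit, while the probe sets are of a whole-transcript array. Of 21789 probe sets with a single gene symbol, 1 per gene (highest mean) was kept, 19938 genes. RefSeq symbols matched 21698.

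A mean per group was fitted to all 31 arrays with limma 3.58.1 in R 4.3.3 (lmFit, eBayes, 21 residual degrees of freedom). P-values were two-sided, adjusted by Benjamini-Hochberg over all genes and called below 0.05. The number of arrays limits precision. The fit was tested on simulated data. Same-numbered replicates were not treated as pairs.

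The members, 47 gene lists (649 of 688 members measured) and tests were chosen with earlier results of these data known. Genes were named by rule: the 10 largest rises and falls among called genes without overlap (clones left out), up to 4 members of each list by p, members of hair shaft, follicle, pigment, muscle, vessel and clock lists, and the 10 lowest p among genes called for the genotype difference. List counts under alternatives were added after the data were seen. Python 3.11.15 with matplotlib 3.10.9 drew the plots.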

Additional observations from a re-analysis of the deposited data

Results flagged for a closer look

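At 6 weeks 1 of the 4 arrays stood apart from the others for 3 named genes, by a gap of most of the group's range. Replicate 3 was low for Lce1h (6.95), replicate 4 for Dpp4 (8.36) and replicate 2 for Pmepa1 (8.28). Chance flags about 1 in 20 groups, and the genes with values here include 74 called ones, so these 3 flags cannot be told from chance.

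The change from 6 to 10 weeks differed between wild type and cpdm skin for many of the named genes, by the limma test of the difference itself. Over all genes 8.39% were called by this test. The genes were named largely by their wild type change or by a low p of this test, on the same arrays. How many of them differed is therefore not a separate result. Values are the wild type change minus the cpdm change on the log2 scale. The inner root sheath genes differed by -9.63 (Krt25), -9.17 (Krt27), -9.05 (Krt26), -8.96 (Krt71), -8.34 (Krt28), -8.31 (Krt73), -8.22 (Tchh), -7.77 (Krt72), -6.57 (Padi3) and -4.47 (Krt74). The hair keratins differed by -8.06 (Krt33a), -7.76 (Krt86), -6.54 (Krt31), -6.07 (Krt35), -5.27 (Krt33b) and -3.37 (Krt84). Keratin-associated genes differed by -8.77 (Krtap11-1), -8.31 (Krtap8-1), -8.12 (Krtap15), -7.64 (Krtap7-1) and -7.02 (Krtap6-5). Prr9 and Crnn, outside the hair lists, differed by -8.68 and -8.39. Hair matrix genes differed by -7.31 (Dsg4), -6.18 (S100a3), -3.66 (Hoxc13), -3.45 (Msx2), -2.65 (Bambi) and -2.14 (Foxn1).

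Among follicle and signal genes the differences were -1.72 (Lgr5), -1.45 (Cdh3), -1.30 (Sox9), 1.39 (Krt15), -1.42 (Bmp7), -0.75 (Bmpr1a), -1.06 (Gli2), 1.45 (Fgf18), -1.04 (Corin), -1.88 (Wnt5a) and -1.04 (Lgr4). Mlana of pigment cells differed by -2.19 and Rrm2 of dividing cells by -0.93. In the epidermis the differences were -0.67 (Krt14), 1.15 (Lce1h), -0.68 (Klk7), -1.20 (Tgm1) and -1.54 (Sprr1a).

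Muscle genes differed by 1.5 (Myh1), 1.59 (Eno3), 1.80 (Pygm) and 1.58 (Pgam2), and the fat gene Thrsp by 1.2. In the dermis and vessels the differences were -2.44 (Tnc), 0.96 (Fap), 0.83 (Adamts5), 1.14 (Tek), 0.70 (Pecam1), 0.68 (Cldn5), -1.22 (Smtn) and 1.22 (Adm). Immune genes and large rises differed by 1.39 (Csf1r), 1.09 (Ciita), 1.76 (Retnla), 2.11 (Slc26a7), 1.51 (Pamr1), 1.33 (Pla2g2d) and 2.25 (Ccl24). The genes with the lowest p differed by 0.79 (Hscb), 0.71 (Snx29), -1.20 (Enah), -0.87 (Adgrl1), -1.87 (Pmepa1), -1.93 (Col12a1), 3.17 (Pyy), -1.67 (Sprr2f) and -1.92 (Sprr2e).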

How the results depend on the processing

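The counts of called genes depend on the processing more than the differences do. Higher and lower genes numbered 392 and 304, and 67 and 59 with the 7 arrays alone, 7 and 0 with the 16 wild type arrays, 1840 and 1322 with array weights, 39 and 19 at an adjusted p below 0.01, and 54 and 122 at 2-fold or more. Leaving out the dimmest 40% of genes gave 464 and 476. The named genes Hamp, Cd14, Slc26a7, Hscb, Slc24a5, Sprr2f and Sprr2e were among those left out. Omitting 1 array gave 2 to 1038 higher and 0 to 849 lower genes. The genotype difference was called for 4493 genes with array weights, 267 at an adjusted p below 0.01, 623 at 2-fold or more, and 735 to 2836 with 1 array omitted. With the replicate number as a block, 222 genes were higher and 93 lower, but the numbers do not pair the samples (correlations of same-numbered deviations -0.31, 0.20 and 0.12, and 0 of 3 arrays of 10 weeks correlated best with their own number). The share of higher genes was 56.3%, 70.5% with the block, 50.8% after repeated quantile normalization, 49.4% without the dimmest genes, and 48.4% and 73% without 6-week replicates 1 and 3. Where a count moved, the cause was not tested, and each omission also left fewer arrays. Unadjusted p was below 0.05 for 4128 genes. No called gene changed sign in any alternative fit. For the genes with values here, 1211 values under alternatives kept side and sign, 387 lost and 38 gained a call. The 5 that turned were all of the uncalled Sprr2e (-0.03), at 0.027 with the replicate block, 0.0033 and 0.027 without 6-week replicates 3 and 4, and 0.035 and 0.05 without 10-week replicates 1 and 3, in a range of -0.18 to 0.05 with 1 array omitted.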
